A study of Homo sapiens with 4 samples.

Results

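Histone lysine methylation is written by methyltransferases and removed by demethylases. The set described here holds 31 of these enzyme genes, 20 methyltransferases and 11 demethylases, chosen by symbol as the writers and erasers other than the NSD, SETD2, ASH1L, EZH and KDM6 genes. By symbol 30 of the 31 were found among the 62069 genes of the files, and KMT2B was not analysed here. EHMT2 carried 7 gene identifiers, and its value is that of the identifier on chromosome 6, since the 6 on other haplotypes of the region held 0 fragments in all.

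RNA was sequenced from KMS11, an established multiple myeloma cell line with the t(4;14) translocation, which places the H3K36 methyltransferase gene NSD2 under an immunoglobulin enhancer. The libraries numbered 4, of which 2 came from cells labelled NSD2 knockdown and 2 from cells labelled control. Both groups were infected with lentivirus in 10 µg/mL polybrene, and RNA was collected at 96 h, of which 72 h followed a change of medium. KMS11 is a single cell line, and no label tells whether libraries of the same group are separate cultures. The p-values therefore rest on a spread between samples that may be technical. In such bulk RNA, fewer cells with a transcript and less transcript per cell cannot be told apart. The comparison asks whether the RNA of other histone methylation enzymes differs when NSD2 is targeted.

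Most histone methyltransferases use a SET domain to add methyl groups to lysines, while DOT1L uses an unrelated fold. Methylation of H3K4 marks promoters and enhancers, and that of H3K36 and H3K79 marks transcribed genes. Methylation of H3K9 and trimethylation of H4K20 mark silent chromatin. Demethylases either oxidise the methylated lysine with a flavin cofactor, as KDM1A does, or use the iron-dependent JmjC domain, as the other demethylases in this set do. NSD2 deposits H3K36me2, the mark that KDM2A and KDM2B remove.

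Counted fragments ranged from 46728940 to 55059566 per library, and every gene of the set had at least 742 fragments in each. NSD2 itself stood at 919 and 1156 CPM (fragment counts per library, scaled by TMM) in the libraries labelled knockdown, against 1121 and 1471 CPM in the control libraries. The groups overlapped, and its log2 fold change of -0.32 (95% interval -0.66 to 0.02) had an adjusted p of 0.244 by edgeR's quasi-likelihood test. With terms for GC content and exonic length the NSD2 value was -0.04, and with 1 library left out it ran from -0.50 to -0.12. NSD2 passed as lower without control library 1 (adjusted p = 0.0196 by edgeR), without knockdown library 2 (adjusted p = 0.0268) and with no filter on low counts (adjusted p = 0.0173). It also passed with the library number as a block (-0.32, adjusted p = 0.0197), so whether NSD2 is called as lower depends on these settings. Of 6 plasma cell markers, SDC1, XBP1, IRF4, PRDM1 and TNFRSF17 had means of at least 157 CPM in both groups. CD38 was near absent, at 0.163 ± 0.179 CPM in the libraries labelled knockdown and 1.12 ± 0.596 CPM in the control libraries (SD, n = 2 each), and was the 1 marker that passed (adjusted p = 0.0284 by edgeR).

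No gene of the set passed the test at an adjusted p below 0.05. By edgeR, 0 of the 30 measured genes were called as higher and 0 as lower under the knockdown label, where 5.93% of all 17172 genes tested were called, 1.74% as higher and 4.19% as lower. At an unadjusted p below 0.05 there were 4 of 30, SMYD3 and KDM3A with higher values and KMT2A and KMT2C with lower values, beside 22.5% of all genes (9.46% higher and 13.1% lower). DESeq2 called 0 of the 30, where it called 6.89% of all genes, and limma-voom 0 of the 30, where it called 5.86%. The groups did not overlap in 8 of the 30 genes, 5 higher and 3 lower, beside 53.2% of all genes (27% higher and 26.2% lower).

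Every one of the 30 intervals at 95% lay inside a 2-fold change in either direction, and 26 of them lay inside a 1.5-fold change. The lowest bound was -0.81 for KMT2A and the highest 0.64 for KDM3A on the log2 scale. The standard errors ran from 0.0894 to 0.183 with a median of 0.103. The median log2 fold change of the set was -0.0052, beside -0.0016 for all genes tested, and 16 of the 30 lay within 0.1 of zero. In the authors' deposited table, whose contrast is named M2 over LUC and whose libraries are not stated, the adjusted p of the 30 genes ran from 0.806 to 1. Below 0.05 there were 0 of the 30, beside 351 of the 18997 genes with an adjusted p in that DESeq2 comparison.

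**Figure D1:**
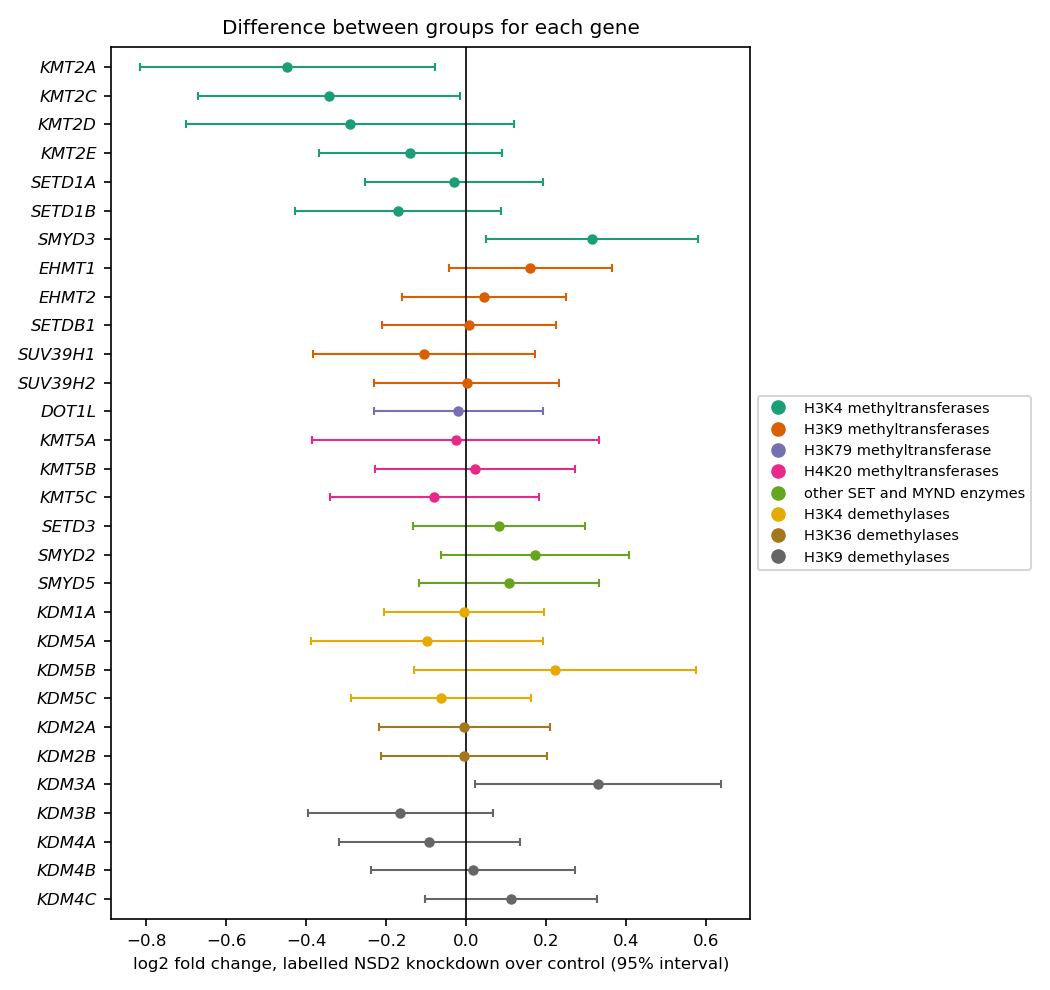
Points are log2 fold changes of the 30 genes, labelled NSD2 knockdown over control, and bars are the 95% intervals of edgeR's model (2 libraries per group). Colours give the role of each gene. The intervals of KMT2A and KMT2C lie below zero and those of SMYD3 and KDM3A above it, and none of the 30 passed after adjustment.

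Levels within the set spanned a wide range. Per kb of exonic length, KDM1A, the flavin-dependent H3K4 demethylase of the CoREST complex, was the highest, at a mean over the 4 libraries of 33.9 RPKM (CPM per kb). KDM5C, an H3K4 demethylase gene on the X chromosome, followed at 25.5 RPKM and KDM2A at 17.5 RPKM. For these 3 genes the library range did not overlap that of the next gene in the order. The lowest level was that of KDM5B, another H3K4 demethylase gene, at 1.99 RPKM.

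Between these ends the order is not firm. Of 29 neighbouring pairs in the order, 24 had overlapping library ranges, so most neighbours did not differ beyond their spread. By level per kb, 27 of the 30 genes lay above the median of all tested genes, and the exceptions were KMT2A, KDM2B and KDM5B at the 48.1, 46.3 and 41.5 percentiles. The other end was the 91.6 percentile of KDM1A. KDM2B sat at 2.66 RPKM and its paralogue KDM2A at 17.5 RPKM, with means of 43.5 and 172.7 CPM in the control libraries. The length used counts all annotated exon bases of a gene, 16325 bp for KDM2B and 9841 bp for KDM2A. It can exceed the length of the transcript made, so the order depends on it. In CPM, KDM5C (means of 218.0 under the knockdown label and 227.7 in control) stood above KDM1A (115.7 and 116.1).

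**Figure D2:**
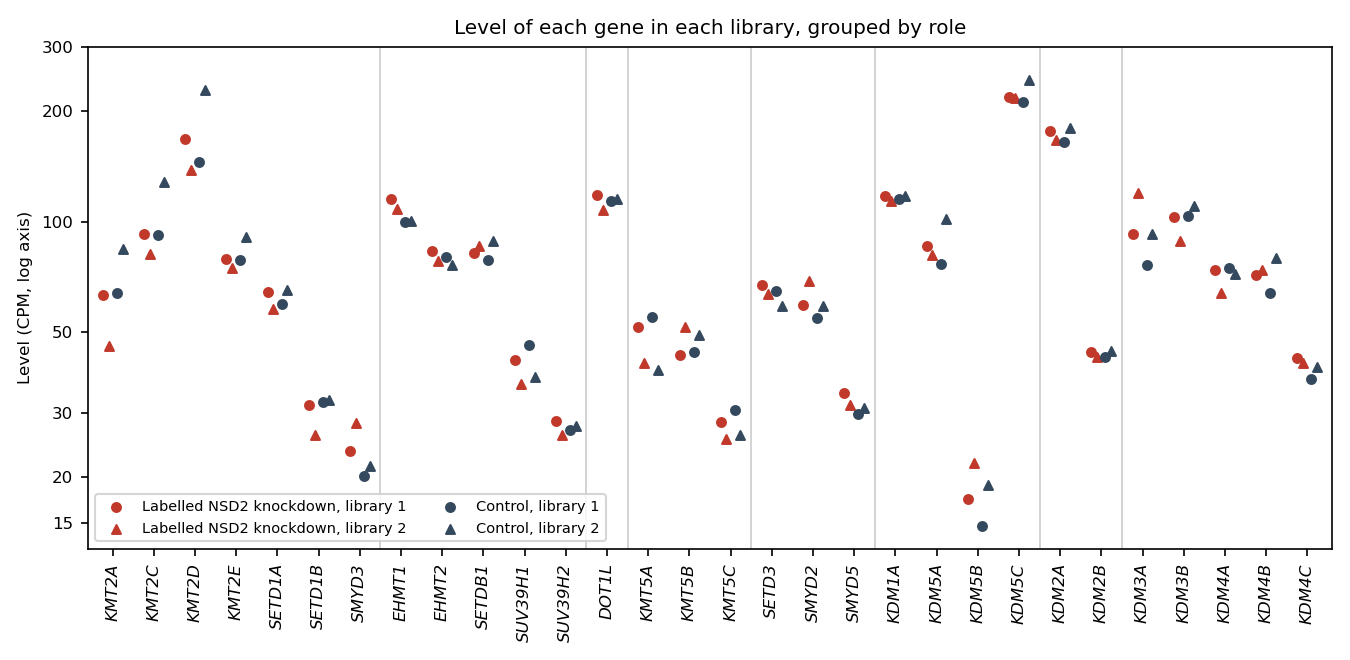
Each symbol is the level of a gene in 1 library, in CPM on a log axis, with genes grouped by role. Red marks the 2 libraries labelled NSD2 knockdown and dark blue the 2 control libraries, and shape gives the library number. KMT2A, KMT2C and KMT2D are highest in control library 2, and most other genes show 4 symbols close together.

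The H3K4 methyltransferase genes KMT2A, KMT2C and KMT2D had the lowest log2 fold changes of the set, and none passed with all 4 libraries and the group as the only term under the default filter. They encode very large proteins that work within COMPASS-like complexes: KMT2A acts at promoters of developmental genes such as the HOX genes, and KMT2C and KMT2D add H3K4me1 at enhancers. KMT2A (ENSG00000118058, chromosome 11, 118307205 to 118397539, GRCh37, plus strand) was at 62.8 and 45.8 CPM in the libraries labelled knockdown, against 63.7 and 84.3 CPM in the control libraries. Its groups were apart only by the gap between 62.8 and 63.7 CPM. This gave a log2 fold change of -0.45 (SE 0.164, 95% interval -0.81 to -0.08, adjusted p = 0.147 by edgeR).

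KMT2C (chromosome 7, 151832010 to 152133090, minus strand) had 92.3 and 81.5 CPM in the libraries labelled knockdown, against 92.1 and 128.4 CPM in the control libraries. KMT2D (chromosome 12, 49412758 to 49453557, minus strand) had 167.9 and 138.4 CPM in the libraries labelled knockdown, against 145.8 and 228.7 CPM in the control libraries. In both genes control library 2 was the high one, and the other control library lay among or near the knockdown libraries, so that the groups overlapped. The log2 fold changes were -0.34 for KMT2C (SE 0.146, adjusted p = 0.203) and -0.29 for KMT2D (SE 0.183, adjusted p = 0.389). KMT2C shares sequence with pseudogene copies elsewhere in the genome, so its count is uncertain.

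Without control library 2, the log2 fold change was -0.24 for KMT2A, -0.09 for KMT2C and 0.06 for KMT2D. Without control library 1 it was -0.63, -0.56 and -0.57, and these 3 were lower past the threshold (adjusted p = 0.000699, 0.000815 and 0.0011 by edgeR), as were 7.52% of all genes. With knockdown library 1 left out, KMT2A passed as well, at -0.69 (adjusted p = 0.000652), where 4.95% of all genes were lower. What sets control library 2 apart in these genes was not tested.

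KMT2A, KMT2C and KMT2D also have the greatest exonic lengths of the set, at 21791, 22650 and 20476 bp. Of all tested genes, 160 exceeded 16000 bp, and 25 of these were lower and 0 higher past the threshold, with a median log2 fold change of -0.20. The 4 genes of the set in that class are these 3 and KDM2B, at 16325 bp, whose log2 fold change was -0.0058. With smooth terms for the GC content and exonic length of each gene, the log2 fold change was -0.15 for KMT2A (95% interval -0.44 to 0.14), -0.04 for KMT2C and -0.00088 for KMT2D. All 3 values were nearer to zero with the terms. The terms were fitted to each library without regard to group. They therefore also remove a group difference that genes of like length or GC content share. With them the median log2 fold change of genes above 16000 bp moved from -0.20 to 0.05. The targeted gene NSD2 also exceeds 16000 bp, since its mean of 1037.5 CPM in the libraries labelled knockdown corresponded to 52.5 RPKM. Its log2 fold change moved from -0.32 to -0.04 with the terms. The part of length or GC content in these values was not tested further.

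**Figure D3:**
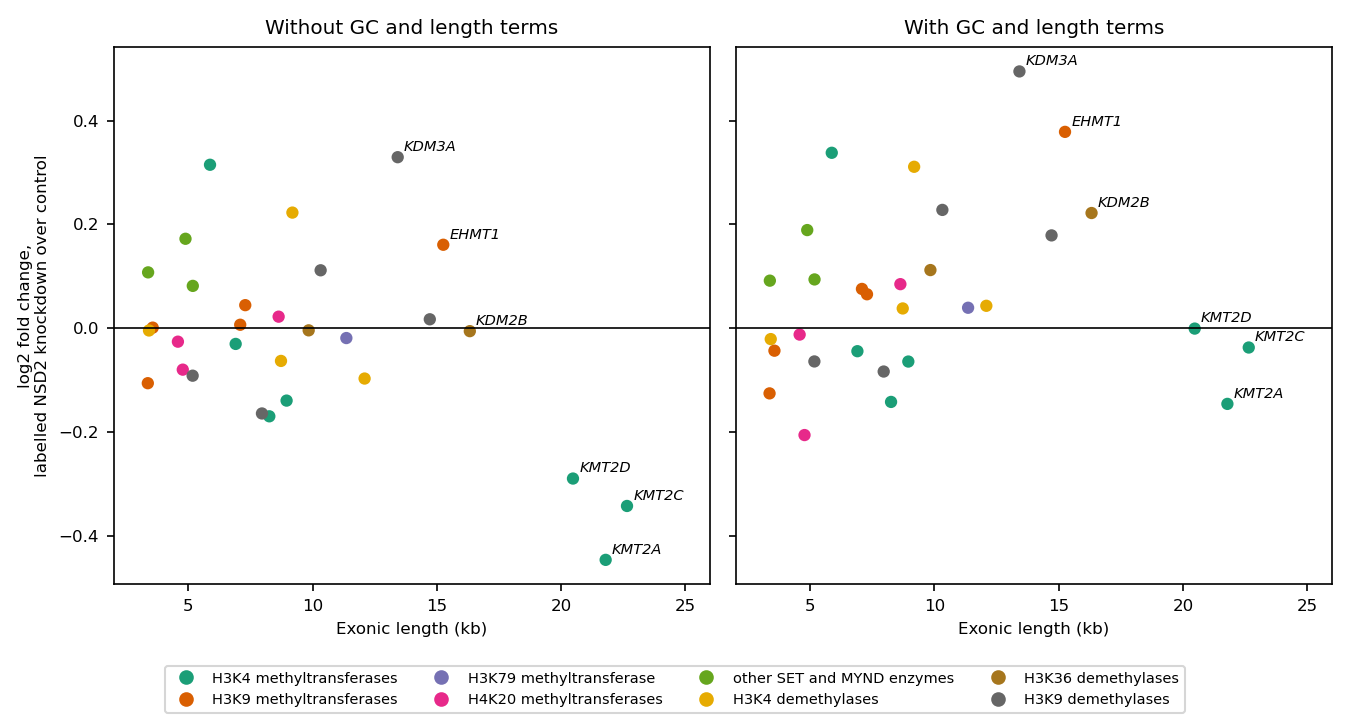
The log2 fold change, labelled NSD2 knockdown over control, of the 30 genes is plotted against exonic length in kb, without (left) and with (right) smooth terms for GC content and length. Colours give the role. KMT2A, KMT2C and KMT2D lie at -0.45, -0.34 and -0.29 on the left and at -0.15, -0.04 and -0.00088 on the right.

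The promoter windows of these 3 genes and of KDM3A, the gene with the highest log2 fold change, are shown because they sit at the 2 ends of the set. Each runs from 250 bases before to 50 bases after the RefSeq start (GRCh38.p14, another build than the gene coordinates given here), and capitals mark the GC box GGGCGG or its reverse complement CCGCCC, overlapping matches included. They lie at chr11:118436242-118436541 (plus strand), chr7:152435954-152436253 (minus strand), chr12:49060745-49061044 (minus strand) and chr2:86441121-86441420 (plus strand).
KMT2A: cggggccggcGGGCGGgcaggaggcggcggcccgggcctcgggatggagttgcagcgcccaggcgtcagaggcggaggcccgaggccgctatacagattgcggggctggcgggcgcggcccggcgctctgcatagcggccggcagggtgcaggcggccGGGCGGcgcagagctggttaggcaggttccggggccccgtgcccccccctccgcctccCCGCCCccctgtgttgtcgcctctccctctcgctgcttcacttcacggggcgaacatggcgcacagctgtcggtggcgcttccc
KMT2C: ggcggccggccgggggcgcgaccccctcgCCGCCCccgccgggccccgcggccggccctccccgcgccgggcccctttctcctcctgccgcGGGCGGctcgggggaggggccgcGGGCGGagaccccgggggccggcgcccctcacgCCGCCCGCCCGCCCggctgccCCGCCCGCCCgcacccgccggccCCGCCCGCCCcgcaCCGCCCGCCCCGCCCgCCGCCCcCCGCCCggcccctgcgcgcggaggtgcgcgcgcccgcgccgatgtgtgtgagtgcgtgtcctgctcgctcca
KMT2D: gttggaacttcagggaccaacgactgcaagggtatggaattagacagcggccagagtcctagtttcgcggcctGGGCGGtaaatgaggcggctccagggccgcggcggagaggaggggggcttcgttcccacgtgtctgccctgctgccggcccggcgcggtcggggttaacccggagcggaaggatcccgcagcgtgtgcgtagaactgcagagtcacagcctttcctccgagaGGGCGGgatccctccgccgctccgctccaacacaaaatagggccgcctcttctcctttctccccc
KDM3A: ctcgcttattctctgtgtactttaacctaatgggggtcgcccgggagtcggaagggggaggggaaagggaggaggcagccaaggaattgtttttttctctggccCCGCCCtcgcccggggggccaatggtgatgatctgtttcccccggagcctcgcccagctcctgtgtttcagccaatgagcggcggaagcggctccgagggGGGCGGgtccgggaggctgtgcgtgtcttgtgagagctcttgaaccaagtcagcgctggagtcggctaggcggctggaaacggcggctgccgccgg

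GC boxes numbered 3 in the KMT2A window, 15 in that of KMT2C, 2 in that of KMT2D and 2 in that of KDM3A. RefSeq windows were matched for 28 of the genes of the set, and 71.4% of these held the GC box on either strand, beside 45.0% of the 35116 windows of the same length. The TATA box TATAAA was found in 0 of the 28, beside 11.5% of all windows, and the CCAAT box CCAAT in 9 of the 28, or 32.1%, beside 34.6%. The median number of CpG dinucleotides was 30 in the windows of the set and 14 in all windows. All windows were taken whether or not their gene had counts here, so these differences need not be particular to the set. These are matches of letters and do not show that a factor binds.

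KMT2E, SETD1A and SETD1B lay nearer to zero than these 3. KMT2E, grouped here with the H3K4 writers, was at 79.02 and 74.58 CPM in the libraries labelled knockdown, against 78.42 and 90.81 CPM in the control libraries (log2 fold change -0.14, adjusted p = 0.466). SETD1A and SETD1B encode the main depositors of H3K4me3. SETD1A had a log2 fold change of -0.03 (95% interval -0.25 to 0.19), and SETD1B was at 31.48 and 26.03 CPM in the libraries labelled knockdown, against 32.21 and 32.47 CPM in the control libraries (-0.17, adjusted p = 0.425). The groups of SETD1B did not overlap, and knockdown library 2 was the low one.

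SMYD3, a SET and MYND enzyme gene linked to H3K4 and to cytoplasmic substrates (chromosome 1, 245912642 to 246670614), went the other way. It stood at 23.7 and 28.1 CPM in the libraries labelled knockdown, against 20.2 and 21.4 CPM in the control libraries. Both knockdown libraries were above both controls, with a log2 fold change of 0.32 (SE 0.119, 95% interval 0.05 to 0.58, adjusted p = 0.156 by edgeR). Of the 7 measured genes grouped here with the H3K4 writers, KMT2E and SMYD3 included, 1 had a log2 fold change above zero and 6 below. Of all 17172 genes tested, 8541 were above zero and 8631 below. The median of the 7 was -0.17, and 0 passed.

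Writers of H3K9 methylation showed small differences. EHMT1 and EHMT2 encode the partners GLP and G9a, which deposit H3K9me1 and H3K9me2 in euchromatin. EHMT1 (chromosome 9, 140513444 to 140764468) was at 115 and 108 CPM in the libraries labelled knockdown, against 99.6 and 100.2 CPM in the control libraries. The groups did not overlap, with a log2 fold change of 0.16 (SE 0.0911, adjusted p = 0.338 by edgeR). EHMT1 passed with GC content and length terms (log2 fold change 0.38, adjusted p = 0.0435 by edgeR), the only gene of the set to do so. With these terms 6.77% of all genes were called, 2.23% as higher and 4.54% as lower. The exonic length of EHMT1 is 15257 bp. For all tested genes of 8000 to 16000 bp the median log2 fold change also moved up with the terms, from -0.08 to 0.02. The part of length in the EHMT1 value was not tested.

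EHMT2 was at 82.9 and 78.2 CPM in the libraries labelled knockdown, against 80.1 and 76.1 CPM in the control libraries, with a 95% interval of -0.16 to 0.25 for its log2 fold change. SETDB1, which works with TRIM28 to silence retroelements, had a log2 fold change of 0.0065 (95% interval -0.21 to 0.22). SUV39H1 and SUV39H2 deposit H3K9me3 at pericentromeric heterochromatin. SUV39H1 averaged 38.8 ± 4.13 CPM in the libraries labelled knockdown and 41.8 ± 5.99 CPM in the control libraries (SD, n = 2 each). SUV39H2 averaged 27.3 ± 1.60 CPM in the libraries labelled knockdown and 27.3 ± 0.443 CPM in the control libraries (SD, n = 2 each). In none of these 4 genes did the groups separate.

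DOT1L, the sole H3K79 methyltransferase, was at 118 and 107 CPM in the libraries labelled knockdown, against 113.9 and 114.9 CPM in the control libraries. Both controls lay between the 2 knockdown libraries, and the log2 fold change was -0.02 (95% interval -0.23 to 0.19).

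Among the H4K20 writers, the difference between libraries of a group exceeded that between groups. KMT5A, which deposits H4K20me1 and is regulated through the cell cycle, was at 51.6 and 41.0 CPM in the libraries labelled knockdown, against 54.9 and 39.3 CPM in the control libraries. Library 1 was the higher in both groups. The log2 fold change between groups was -0.03 (95% interval -0.39 to 0.33). KMT5B and KMT5C, which add the second and the third methyl group, had log2 fold changes of 0.02 and -0.08, and their groups overlapped.

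The 3 other SET and MYND genes all had log2 fold changes above zero, and none passed. SMYD2, which methylates p53 and other proteins besides histones, was at 59.0 and 68.6 CPM in the libraries labelled knockdown, against 54.4 and 58.9 CPM in the control libraries (log2 fold change 0.17, adjusted p = 0.372). The groups of SMYD2 were apart by little, at 59.0 against 58.9 CPM. SETD3, now known as an actin histidine methyltransferase, and SMYD5 had log2 fold changes of 0.08 and 0.11.

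None of the 4 H3K4 erasers passed, and the groups overlapped in each. KDM1A was at 117.5 and 114.0 CPM in the libraries labelled knockdown, against 115.0 and 117.1 CPM in the control libraries. This was the smallest standard error of the set, 0.0894, with a 95% interval of -0.20 to 0.20. KDM5C was at 218.4 and 217.5 CPM in the libraries labelled knockdown, against 212.0 and 243.4 CPM in the control libraries, again with control library 2 the high one. KDM5A was likewise highest in control library 2, at 101.7 CPM, against 76.5 to 85.7 CPM in the other 3 libraries (log2 fold change -0.10, adjusted p = 0.71).

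KDM5B, an H3K4 demethylase gene best known from breast and prostate cancer, was at 17.4 and 21.9 CPM in the libraries labelled knockdown, against 14.7 and 19.1 CPM in the control libraries. Library 2 was higher than library 1 in both groups, which then overlapped, and the log2 fold change was 0.22 (95% interval -0.13 to 0.57).

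The erasers of H3K36me2, which act against the mark of NSD2, lay close to zero with the group as the only term. KDM2A was at 177.1 and 167.2 CPM in the libraries labelled knockdown, against 165.2 and 180.2 CPM in the control libraries. KDM2B was at 44.1 and 42.6 CPM in the libraries labelled knockdown, against 42.6 and 44.4 CPM in the control libraries. Their log2 fold changes were -0.0043 (95% interval -0.22 to 0.21) and -0.0058 (95% interval -0.21 to 0.20), so that a change of 1.5-fold lies outside both intervals. With GC content and length terms the values were 0.11 for KDM2A (95% interval -0.06 to 0.29) and 0.22 for KDM2B (95% interval 0.02 to 0.43). Their adjusted p values were 0.422 and 0.173 by edgeR.

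Among the erasers of H3K9 methylation, KDM3A had the highest log2 fold change of the set. KDM3A (chromosome 2, 86667770 to 86719839) removes H3K9me1 and H3K9me2 and is known to be induced by hypoxia. It stood at 92.6 and 119.6 CPM in the libraries labelled knockdown, against 76.2 and 92.6 CPM in the control libraries, so the groups met at 92.6 CPM. By edgeR it had a log2 fold change of 0.33 (SE 0.138, 95% interval 0.02 to 0.64, adjusted p = 0.196). With GC content and length terms KDM3A was at 0.495 (95% interval 0.21 to 0.78, adjusted p = 0.0542 by edgeR). When control library 2 was left out it passed at 0.47 (adjusted p = 0.0241), where 2.53% of all genes were higher. When knockdown library 1 was left out it passed at 0.51 (adjusted p = 0.0151), where 2.38% were higher.

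KDM3B, its paralogue, was at 102.8 and 88.2 CPM in the libraries labelled knockdown, against 103.9 and 110.2 CPM in the control libraries. Its groups did not overlap, and its log2 fold change was -0.16 (adjusted p = 0.387). The KDM4 genes encode erasers of H3K9me3 and H3K36me3. Log2 fold changes were -0.09 for KDM4A, 0.02 for KDM4B and 0.11 for KDM4C, with adjusted p of at least 0.54 by edgeR. The 2 libraries labelled knockdown were both above the 2 controls in KDM4C, at 42.2 and 41.1 CPM against 37.1 and 40.0 CPM.

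The libraries numbered 2 were compared with those numbered 1 over both groups together. In 16 of the 30 genes this difference was larger in size than that between the groups. Opposite differences in the 2 groups cancel in this measure: KMT2A was at -0.02, although its libraries differed within each group. For this count the share over all genes was not computed. The number is only a label of the library. In the fit with group and number, KDM3A (log2 fold change, number 2 over number 1, of 0.33, adjusted p = 0.0329) and KDM5B (0.35, adjusted p = 0.0457) were higher and KMT5A (-0.41, adjusted p = 0.0081) lower by edgeR. That is 3 of 30, where 3.54% of all genes were called, 1.98% as higher and 1.56% as lower. DESeq2 called 0 of the 30 in this contrast, and library-size scaling called KMT5A alone. How many of all genes these settings called between library numbers was not computed.

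**Figure D4:**
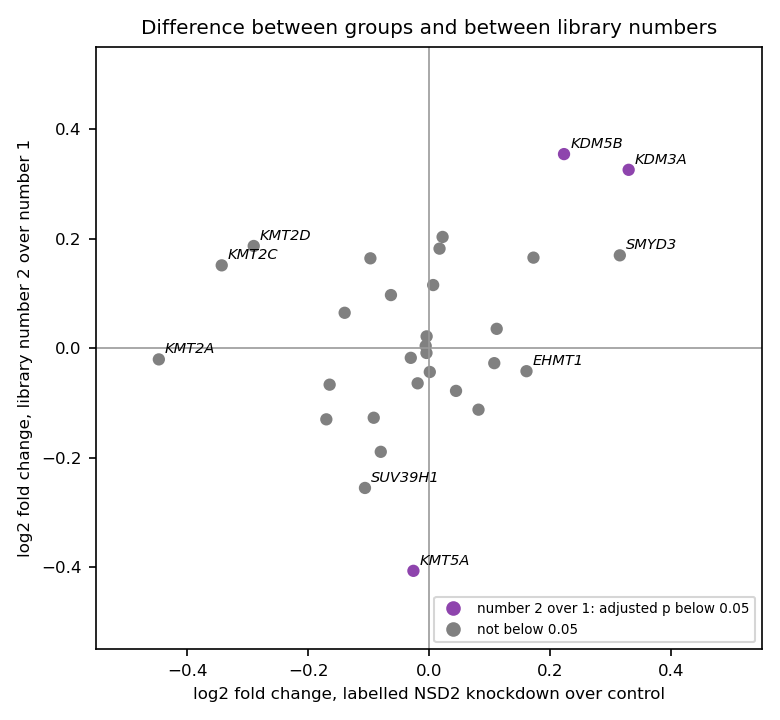
Each point is 1 of the 30 genes, with the log2 fold change, labelled NSD2 knockdown over control, on the x axis and that of library number 2 over number 1 on the y axis. Purple points passed the test between library numbers. KDM5B and KDM3A lie at 0.35 and 0.33 on the y axis and KMT5A at -0.41, and no point passed the test on the x axis.

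In 8 lists of complex subunits, readers and related enzymes, 93 partner genes were tested, and 0 were higher and 0 lower by edgeR with the group as the only term, where 5.93% of all genes were called. At an unadjusted p below 0.05 there were 13, 8 with higher and 5 with lower values, beside 22.5% of all genes (9.46% higher and 13.1% lower). Among COMPASS and MLL complex subunits 0 of 15 passed, among DOT1L and elongation partners 0 of 10, among H3K9 methylation readers and partners 0 of 13 and among KDM1A complex partners 0 of 15. The readers of H4K20 methylation and repair gave 0 of 8, other SET and PRDM genes 0 of 12, other demethylase genes 0 of 11 and arginine methyltransferases 0 of 9. The list medians of the log2 fold change ran from -0.11 for the DOT1L and elongation partners to 0.13 for the arginine methyltransferases.

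Limma-voom called 0 of these 93 genes, where it called 5.86% of all genes, and DESeq2 called 3 as lower and 0 as higher, where it called 6.89%. With no filter on low counts edgeR called 1 as higher and 5 as lower, where it called 2.08% and 4.71% of all genes. With GC content and length terms it called 2 as higher (JMJD6 and PRMT2) and 0 as lower, where it called 2.23% and 4.54%. The 3 genes called by DESeq2, named after their values were seen, were the elongation factor gene ELL2, which plasma cells use for secretory immunoglobulin (log2 fold change -0.35, adjusted p = 0.0366), the retinoblastoma gene RB1 (-0.37, adjusted p = 0.0491) and the methyltransferase gene SETD7 (-0.37, adjusted p = 0.0255).

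Counting did not use the strand, and the exons of 14 of the 30 genes share bases with another gene, so part of their signal cannot be assigned with certainty. The largest shared stretch with any one gene took 20.3% of the exonic length, that of SUV39H1, with a gene that held 1 fragment over all libraries. SETDB1 shares 947 bp with CERS2, and KMT2D shares 223 bp with PRKAG1.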

How the data were processed

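The files of the 4 libraries hold raw fragment counts per Ensembl gene, deposited by the authors. Per the submitters' processing notes, reads were trimmed with Trim Galore 0.3.7, aligned with STAR 2.5.3 to GRCh37 and counted with featureCounts of Subread 1.4.6, and Picard was used. Per the file headers, strand was not used and alignments were named as free of duplicates. A table of a DESeq2 comparison, deposited by the authors, gives log2 fold changes with standard errors, p-values and exonic lengths in bp. The 4 columns of counts in it were left aside, as was 1 blank line in each file.

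Symbols and GRCh37 coordinates came from that table. edgeR 4.0.16 in R 4.3.3 was used with TMM scaling, its default filter on low counts, the group as the only term and the quasi-likelihood F test. Adjustment followed Benjamini and Hochberg across 17172 genes. Intervals rest on that model. Levels are CPM on TMM-scaled libraries, and RPKM is CPM per kb. All genes of the set were named, and in partner lists at most 3 per direction past the threshold. The set and lists were chosen with earlier results of these data known. The alternatives were scaling by RLE, by the upper quartile or by library size, no filter, a filter of 1 CPM, DESeq2 1.42.0, limma-voom (limma 3.58.1), robust empirical Bayes, a replicate block, GC content (GENCODE 29 transcripts) and length terms fitted with mgcv, and leaving out each library, which assumes that a lone library varies like those of the other group. The procedure was run on simulated counts, which held no effect of library number and so do not test it under such an effect. Promoters are those of RefSeq. Figures were drawn with matplotlib 3.10.9.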

Additional observations from a re-analysis of the deposited data

How the results depend on the processing

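Under 15 alternatives, 8 called no gene of the set, among them all scalings, DESeq2, limma-voom and robust empirical Bayes. The number of genes called, higher and lower, was 658 and 1490 with no filter, and 1 and 2 in the set (KDM3A higher, KMT2A and KMT2C lower), where 6.79% of all genes were called. With GC content and length terms the set gave 1 higher (EHMT1). When 1 library was left out, all genes ranged from 173 to 682 higher and from 649 to 1342 lower, and the set from 0 to 1 higher and from 0 to 3 lower. The causes were not tested.

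Both groups carry library numbers 1 and 2, and deviations of same-numbered libraries from their group means correlated across genes (r = 0.236), but no label says that they pair. With the replicate block, 1327 genes were higher and 1992 lower, and in the set 2 were higher (KDM3A and SMYD3) and 2 lower (KMT2A and KMT2C), where 19.3% of all genes were called. Of the 93 partner genes, 7 were higher and 6 lower with the block, and 17 higher and 8 lower with the block and the terms. With 1 library left out, 1 group held a lone library, and no count of partner genes is given here for those fits. With GC content and length terms and the block, 2187 genes were higher and 2607 lower, and in the set 8 were higher (EHMT1, KDM2B, KDM3A, KDM4B, KDM4C, KDM5B, SMYD2 and SMYD3) and 1 lower (KMT5C), where 29% of all genes were called. The share of calls that were higher was 29.4% as reported, 40.0% with the block and 45.6% with both. Between library numbers, library-size scaling and DESeq2 gave 0 higher in number 2 and DESeq2 0 lower, while GC content and length terms gave 2 lower. No share over all genes was computed for these settings between library numbers.

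Some log2 fold changes in the set changed sign. SUV39H2 was at -0.00014 with RLE scaling, -0.012 with upper-quartile and -0.017 with library-size scaling, -0.00048 with no filter, -0.0097 with the filter of 1 CPM, -0.00014 with DESeq2, -0.0010 with limma-voom, and -0.044 with GC content and length terms (-0.044 with the block as well). SETDB1 was at -0.0065, -0.013 and -0.0042 with upper-quartile scaling, library-size scaling and the filter of 1 CPM, and KDM4B at -0.0022 with library-size scaling. With GC content and length terms, DOT1L was at 0.039, KDM2A at 0.11, KDM2B at 0.22, KDM5A at 0.043 and KDM5C at 0.038, and with the block added they were at 0.039, 0.11, 0.22, 0.048 and 0.039, with KMT2D at 0.0064. Leaving out 1 library gave ranges of -0.086 to 0.043 for DOT1L, -0.57 to 0.065 for KMT2D, -0.11 to 0.041 for SETD1A, -0.071 to 0.087 for SETDB1, -0.25 to 0.053 for SUV39H1, -0.055 to 0.054 for SUV39H2, -0.25 to 0.24 for KMT5A, -0.11 to 0.15 for KMT5B, -0.19 to 0.041 for KMT5C, -0.021 to 0.011 for KDM1A, -0.061 to 0.054 for KDM2A, -0.030 to 0.017 for KDM2B, -0.19 to 0.0022 for KDM4A, -0.13 to 0.18 for KDM4B, -0.28 to 0.12 for KDM5A and -0.16 to 0.034 for KDM5C.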
